A study of Mus musculus with 2 samples.

Results

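The genes of the nuclear-encoded subunits of respiratory complex I were examined in total RNA sequencing of whole mouse heart. They were chosen by symbol alone: a gene was a member if its symbol began with Ndufa, Ndufb, Ndufc, Ndufs, Ndufv or Ndufab followed by a digit and if at least 1 of its annotated transcripts was typed protein coding. The rule found 38 genes among the 55536 mouse genes in the deposited tables, of which 21888 were nuclear and protein coding. The 38 comprised 36 of the 37 canonical nuclear subunits, plus Ndufa4 and its paralog Ndufa4l2. The subunit missed by the rule was Ndufb1-ps, which the annotation names as a pseudogene and types as a noncoding RNA.

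The hearts came from 4-day-old male B6CASTF1/J mice, an F1 hybrid strain obtained from The Jackson Laboratory, and no treatment or engineered allele is named in the labels. There was 1 group of 2 biological replicates, which leaves nothing to contrast, and no test between groups was made. The labels give the hearts different animal numbers but 1 donor record. If both came from 1 animal, the SD over 2 libraries measures technical error alone. Each library was made from 300 ng of ribosome-depleted RNA with spike-in transcripts added, and the tables held 31698880 expected counts in replicate 1 and 35939759 in replicate 2.

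Complex I, or NADH:ubiquinone oxidoreductase, takes electrons from NADH, passes them along a chain of iron-sulphur clusters to ubiquinone, and pumps protons across the inner mitochondrial membrane. It is shaped like an L, with a matrix arm that holds the redox chain and a membrane arm that holds the proton pumps. Core subunits do the catalysis and are shared with bacteria, 7 of them encoded in the nucleus and 7 in mitochondrial DNA, while accessory subunits surround the core and are needed for assembly and stability. Heart muscle is rich in mitochondria, and in mice it shifts toward fatty acid oxidation in the days after birth.

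The tissue label was checked against marker genes. All 8 cardiomyocyte markers were detected, and the ventricular light chain gene Myl2 stood at 8793 and 8144 TPM (a level scaled to transcript length and to the library total) in replicates 1 and 2. The summed level of the 4 skeletal muscle markers was 0.44 and 0.49 TPM. The libraries differed in some other cell types. The 4 red cell markers summed to 943 TPM in replicate 1 and 3557 in replicate 2, although 1 of them, Slc4a1, had 3.42 and 3.02. The 4 fibroblast markers summed to 899 and 1268. Sums were 302 and 273 TPM for the 4 endothelial markers, 126 and 128 for the 4 mural and 16.4 and 18.4 for the 4 macrophage markers. The 4 brown fat markers summed to 578 and 521 TPM, nearly all of it Cox8b, which is also counted among the complex IV genes below. Cidea stood at 26.58 and 27.05 TPM, and Ucp1 was at 0 in replicate 1 and 8.94 TPM in replicate 2. In bulk tissue, fewer cells of a type and less RNA per cell cannot be told apart.

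Promoter sequences are shown first because the motif letters with the largest member share relative to all promoters, found in 5 members, can be read in them. RefSeq start sites (GRCm38.p6) gave 35 promoters of 300 bases, 250 before and 50 after the start, for 33 of the 38 members. The others had no entry. The letters AAGATGGCG, which are those of the YY1 consensus, were searched on both strands, and capitals mark them in the 5 windows below, each written 5′ to 3′ on the gene's own strand.
Ndufa9: gcattgtgggagAAGATGGCGgccgccgtc
Ndufc1: agcctgcggaacAAGATGGCGccgtccgta
Ndufs4: tttgcctacaggAAGATGGCGgcggtc
Ndufs6: agggtcaccggcAAGATGGCGgcggtgct
Ndufs7: aaggccgaggccAAGATGGCGgcgctggcg

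The windows lie at chr6:126849098-126849127 on the minus strand (Ndufa9), chr3:51408916-51408945 minus (Ndufc1), chr13:114388045-114388071 minus (Ndufs4), chr13:73328433-73328461 minus (Ndufs6) and chr10:80249461-80249490 plus (Ndufs7). In all 5 the match began 22 to 35 bases after the start site. In all 5 the ATG within it was the annotated start codon. Over all 32851 promoters of the table, 477 matches were found, of which 332 were on the gene's own strand and 145 placed their ATG at an annotated start codon. Of the 150 own-strand matches that began 15 to 40 bases after the start site, as those of the members do, 101 placed it there, so an ATG at the start codon was common to matches in this position. A match was present in 14.3% of member promoters, in 1.40% of all promoters and in 3.04% of the 11968 promoters of expressed coding genes. The 5 genes with the match covered a wide range of levels, from Ndufs4 at 181 and 173 TPM to Ndufc1 at 494 and 471.

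The other motifs were searched in the same way. The NRF1 letters GCGCATGCG were in 2 of 35 member promoters (5.71%, against 3.64% of promoters of expressed genes), those of Ndufa8 and Ndufa11. The ETS-type letters CCGGAAG were in 4 promoters (11.4% against 17.6%), the SP1-type GGGCGG in 16 (45.7% against 63.4%), the NF-Y CCAAT in 10 (28.6% against 37.7%) and the TGACGT letters of the cyclic-AMP element in 5 (14.3% against 11.4%). The TATA letters TATAAA were in 5 (14.3% against 6.89%) and the E-box CACGTG in 3 (8.57% against 9.89%). Promoters of the same gene can overlap and hold the same match. By gene, of 33, the counts were 4 for TATAAA, 2 for CACGTG, 4 for TGACGT and 15 for GGGCGG. The TATAAA matches began at positions from -235 to -52 relative to the start site. The oestrogen-related receptor letters TCAAGGTCA were in none of the 35, and in 0.259% of promoters of expressed genes. Ndufa11 is shown because it holds both an NRF1 and a cyclic-AMP element match, each a near or full palindrome that matches on both strands, in capitals:
Ndufa11: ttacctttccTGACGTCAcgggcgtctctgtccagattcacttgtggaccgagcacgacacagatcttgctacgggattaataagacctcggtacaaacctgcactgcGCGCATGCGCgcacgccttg

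That stretch is chr17:56717594-56717721 on the plus strand, from 168 to 41 bases before the start site, and no annotated exon of the gene overlaps it. Genes for some of the factors named by these motifs were looked up: Yy1 stood at 20.7 and 17.0 TPM, Nrf1 at 12.3 and 13.9, and Gabpa (an ETS factor) at 23.2 and 21.4. Esrra, an oestrogen-related receptor, stood at 57.8 and 50.1. The median GC content of member promoters was 59.0%, against 61.0% for expressed genes and 52.7% for all.

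Head-to-head gene pairs were counted from the annotation. A coding gene on the opposite strand started within 1000 bases upstream of 9 of 38 members (23.7%), and the share over the 11837 expressed coding genes was 10.5%. The closest pairs were Ndufa7 with Rps28, a ribosomal protein gene, at 10 bases, and Ndufb9 with Tatdn1 at 18 bases. Partner levels ranged widely: Rps28 stood at 484 and 495 TPM, Tatdn1 at 12.4 and 9.68, Rnf113a1 (82 bases from Ndufa1) at 1.36 and 1.57, and Morn5 (52 bases from Ndufa8) at 0 in both libraries.

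Levels below are from the first of 2 deposited quantifications of the same libraries (the first tables) unless the second is named. All 38 members were expressed, that is at 1 TPM or more in each library, a level which 54.1% of nuclear protein-coding genes reached. At least 100 TPM in each was reached by 35 members, against a background of 2.96%. The exceptions were Ndufb3, Ndufb4 and Ndufa4l2. The median member stood at 259 TPM in replicate 1 and 228 in replicate 2 (244 ± 22.0, SD, n = 2), while the median expressed coding gene stood at 12.8 and 11.7. Together the members held 2.57% and 2.44% of the TPM of all nuclear coding genes (2.50% ± 0.0917, SD, n = 2), and 34 of them ranked among the 500 highest coding genes by mean TPM.

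**Figure D1:**
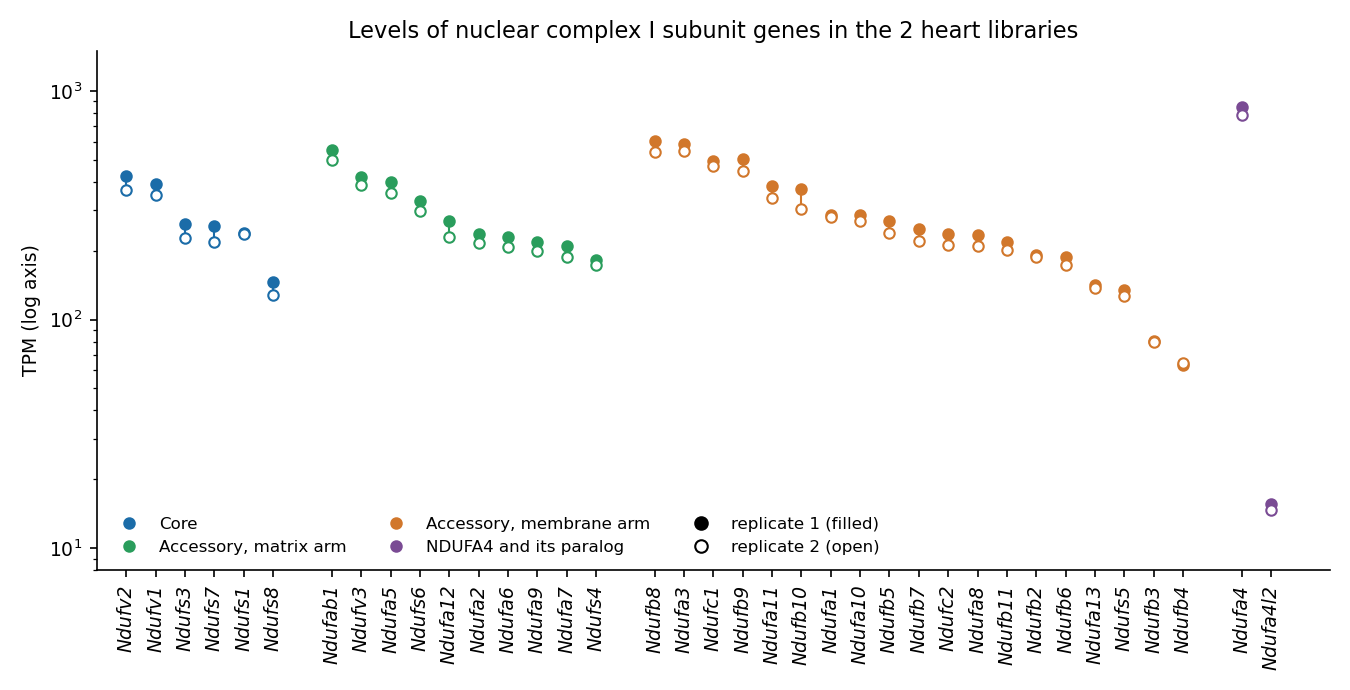
TPM (log axis) of 37 of the members in replicate 1 (filled) and replicate 2 (open), joined by a line and grouped by place in the complex. The subunit genes shown lie between 63.4 and 607 TPM, and the points of a gene are close beside the spread between genes.

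The plot of levels by gene shows that differences between genes were larger than differences between hearts. The SD among the 36 subunit genes was 0.74 in replicate 1 and 0.71 in replicate 2 on the log2 scale. The highest subunit, Ndufb8, was 8.94-fold above the lowest, Ndufb4, by mean TPM. The middle of the distribution was narrow: the upper quartile, 373 TPM, was 1.81-fold above the lower quartile, 206, and 31 of the 36 lay within 2-fold of the subunit median of 241. Ranked by mean TPM, 10 of the 37 pairs of neighbours had all values of the higher gene above those of the lower, and 29 of the 37 pairs had the same order in each library. Since nearly all members were lower in replicate 2 by TPM, ranges over the hearts overlap more readily than values within 1 heart. Spearman's rho between the libraries across the 38 genes, which share library and annotation, was 0.996, and no gene moved by more than 4 ranks.

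The core subunits Ndufv2 and Ndufv1, at the tip of the matrix arm, were high among the core genes. Ndufv2, an iron-sulphur subunit, had 425 TPM in replicate 1 and 369 in replicate 2 (397 ± 39.8, SD, n = 2). Ndufv1, which binds NADH and the flavin, had 391 and 351 TPM. Ndufv2 was the higher in both hearts, with overlapping ranges.

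A middle set of core subunits lay between 218 and 262 TPM. Ndufs3, in the quinone-reducing module, had 262 and 228 TPM. Ndufs7, which carries the last cluster of the chain next to ubiquinone, had 257 and 218 TPM. Ndufs1, the largest subunit and the carrier of several clusters, had 238 and 237 TPM. These 3 overlapped with each other and lay below Ndufv1 and Ndufv2 in both hearts.

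Ndufs8, a ferredoxin-like core subunit, was the lowest of the 7. It had 146 and 129 TPM (137 ± 12.1, SD, n = 2), below every other core gene in both libraries. The core genes encode proteins that join in equal number, and Ndufv2 was above Ndufs8 in both hearts.

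The 10 accessory genes of the matrix arm ranged from 177 to 527 mean TPM. Ndufab1 encodes the mitochondrial acyl carrier protein, which also serves fatty acid synthesis in the matrix and is present at more than 1 site in the complex, and it was the highest, at 553 and 501 TPM. Ndufv3, at the tip of the arm, had 419 and 386 TPM, and Ndufa5, in the quinone-reducing module, had 401 and 356 TPM. Ndufs6, a zinc-binding subunit required late in assembly, had 331 and 298 TPM. In the first tables Ndufab1 was above the other 9 in both hearts, and Ndufv3 was above Ndufa5 in both with overlapping ranges. By the second tables Ndufab1, at 494 and 440 TPM, was below Ndufv3 (661 and 635), Ndufs6 (651 and 600) and Ndufa5 (673 and 541). Counted with its near-identical copies, described below, Ndufab1 had 661 and 596 TPM there, so this order depends on how reads were shared with them.

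The other matrix-arm accessory genes lay close together. Ndufa12 had 269 and 229 TPM, Ndufa2 had 236 and 217, and Ndufa6, an LYR-motif protein that binds the acyl carrier protein, had 229.9 and 207. Ndufa9, a subunit of the hinge between the arms, had 218 and 199 TPM. Ndufa7 had 209 and 188 TPM, and Ndufs4, whose loss in people and mice causes Leigh-like encephalopathy, was the lowest with 181 and 173. The order was the same in both hearts, although the ranges of neighbours overlapped except for Ndufs4 and Ndufa7. By the second tables Ndufa2, at 231 and 206 TPM, was below Ndufs4, at 270 and 245.

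The membrane arm held both the highest and the lowest subunit genes. Its 20 canonical accessory genes include 19 members, with mean levels from 64.1 to 573 TPM. Ndufb8 had 607 and 538 TPM, Ndufa3 had 588 and 547, Ndufc1 had 494 and 471, and Ndufb9, the other LYR-motif subunit, had 506 and 447. These 4 lay above all other members of the arm in both hearts in the first tables. Ndufa11, a membrane protein related to the TIM17 import family, and Ndufb10, a subunit facing the intermembrane space, came next with 385 and 339 TPM and with 374 and 304. By the second tables Ndufa3 (294 and 218 TPM) and Ndufc1 (506 and 486) were below Ndufb10 (628 and 534).

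The middle of the membrane arm held 9 genes between 173 and 286 TPM. Ndufa1 and Ndufb11 lie on the X chromosome, Ndufa1 with 286 and 281 TPM and Ndufb11 with 218 and 202. Ndufa10, which resembles nucleoside kinases, had 286 and 270.3 TPM, and Ndufb5 had 270.1 and 239. Ndufb7 had 250.1 and 220.3 TPM, Ndufc2 had 236 and 213, and Ndufa8 had 235 and 210.4. Ndufb2 had 193 and 188 TPM, and Ndufb6 had 187 and 173. The X-linked pair thus lay within the range of the autosomal genes of the arm.

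At the low end, Ndufa13, also known as GRIM-19, had 141 and 137 TPM, and Ndufs5, a small cysteine-rich subunit of the intermembrane space, had 134 and 126. Ndufb3 had 80.8 and 79.5 TPM. Ndufb4 had 63.4 and 64.7 TPM (64.1 ± 0.898, SD, n = 2), the lowest of the 36 subunits in both libraries. Ndufb1-ps, outside the symbol rule but a canonical subunit of this arm, had 102 and 94.6 TPM, between Ndufs5 and Ndufb3. The 4 subunits with paired CX9C motifs (Ndufs5, Ndufa8, Ndufb7 and Ndufb10), which are imported into the intermembrane space by oxidation, had a median of 242 and 215 TPM.

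Ndufa4 and Ndufa4l2 stood at opposite ends of the family in the first tables. Ndufa4, first named as a complex I subunit and now assigned to cytochrome c oxidase (complex IV), was the highest of the 38 there with 851 and 782 TPM. By the second tables Ndufb8 was higher, at 1071 and 926 TPM against 872 and 790 for Ndufa4. Ndufa4l2, a paralog known as a hypoxia-induced gene, was the lowest with 15.6 and 14.6 TPM. The difference on the log2(TPM + 0.1) scale was 5.76 in replicate 1 and 5.73 in replicate 2, which is 53.6-fold on the mean. Ndufa4l2 rested on 298 and 352 expected counts, the fewest of any member.

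Medians by position in the complex were close. The median core gene stood at 262 and 237 TPM, the median matrix-arm accessory gene at 253 and 223, and the median membrane-arm accessory gene at 243 and 217. On the log2 scale the core median exceeded the accessory median by 0.085 ± 0.025 (SD, n = 2), which is 1.06-fold, against an SD among subunit genes of over 0.7. Core transcripts were longer, with a median leading transcript of 1046 bases against 590 for accessory genes. Across the 38 members, Spearman's rho of mean TPM with the length of the leading transcript was -0.27.

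**Figure D2:**
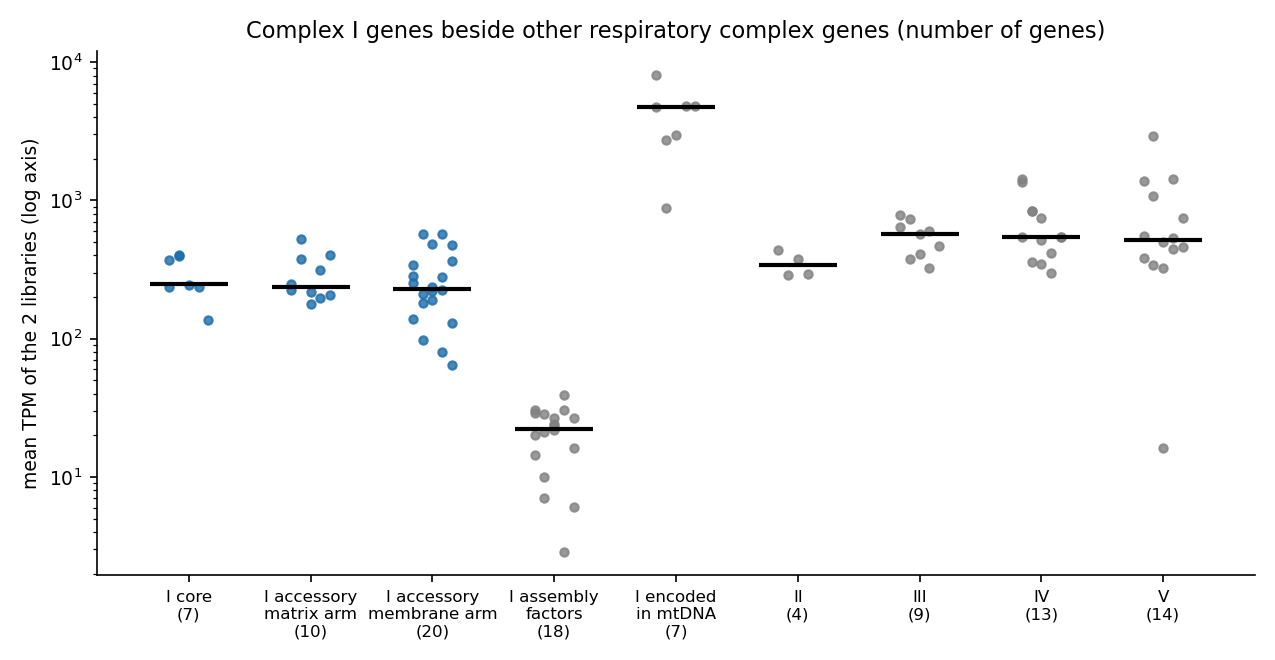
Mean TPM of the 2 libraries (log axis) for each gene of complex I by class, its assembly factors, its mitochondrially encoded subunits and the nuclear genes of complexes II to V, with a bar at the median of the 2 per-library medians. Blue points are nuclear complex I subunits, with medians below those of complexes II to V, and every one of them lies above all assembly factors.

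The nuclear complex I genes were set beside those of the other respiratory complexes. Medians were 345 and 335 TPM for 4 genes of complex II (succinate dehydrogenase), 583 and 555 for 9 of complex III, 584 and 498 for 13 of complex IV, and 532 and 499.9 for 14 of complex V (ATP synthase). In the first tables each of these medians was above those of all 3 complex I classes in both hearts. In the second tables the order held for complexes III to V, at mean medians of 908, 1005 and 964 TPM, but complex II (407) lay between the core (417) and matrix-arm (377) classes. Genes for complex I assembly factors, the chaperones that build the enzyme and leave it, had a median of 21.7 and 22.6 TPM over 18 genes. All 18 had a mean below that of Ndufb4, with Foxred1 the highest at 42.2 and 35.8 TPM and Nubpl, which delivers iron-sulphur clusters, the lowest at 2.93 and 2.86.

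The 7 subunits encoded in mitochondrial DNA were far more abundant as RNA. Their median was 4603 and 4798 TPM, and the difference from the median nuclear member was 4.15 and 4.39 on the log2 scale, or 19.3-fold on the mean, and 11.4-fold in the second tables. mt-Nd1 was the highest with 7718 and 8533 TPM, and mt-Nd6, the only one on the other strand, the lowest with 773 and 989. In these tables even mt-Nd6 exceeded every canonical nuclear subunit in both hearts. For 2 short genes the level depended on the table used: mt-Nd4l had 4779 and 4843 TPM in the first tables but 36.9 and 1.10 in the second, and mt-Nd3 had 2902 and 3004 against 1798 and 13.9.

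The hearts were compared gene by gene as a log2 ratio of replicate 2 over replicate 1, after TMM scaling in edgeR. Over the 38 members the ratio ran from -0.14 to 0.13, with a median of -0.01, beside a median of -0.0033 over all 16271 genes tested. None of the 38 differed by over 1.5-fold, against 12.3% of all genes tested. A ratio below 0 was found for 21 of the 38, against 50.4% of all genes. With 1 library against 1, these ratios describe the libraries and carry no test.

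**Figure D3:**
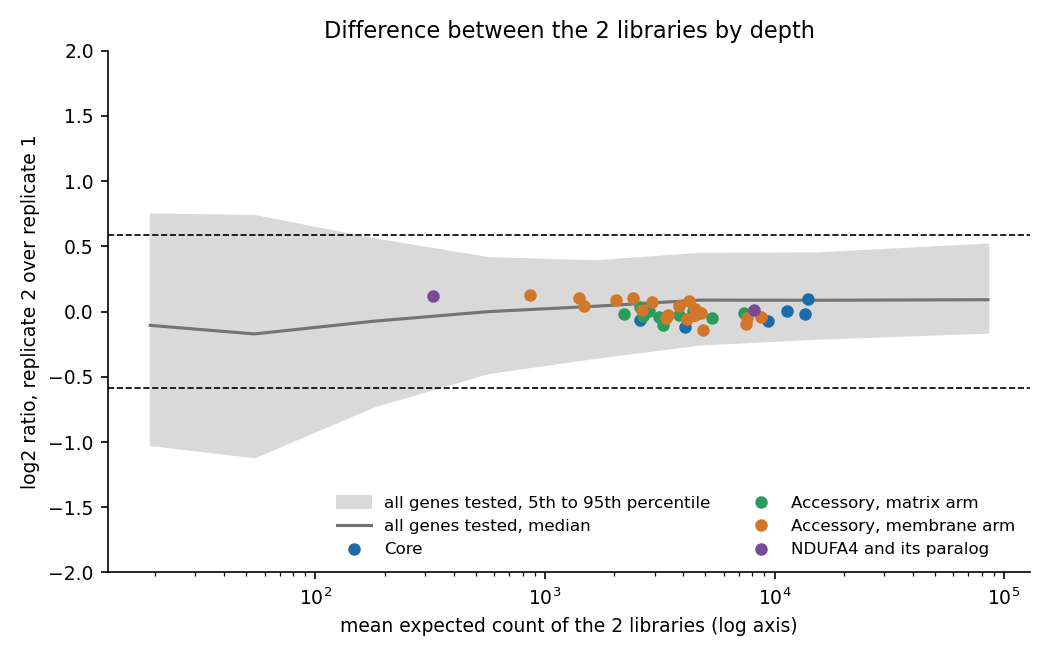
Log2 ratio of replicate 2 over replicate 1 against the mean expected count (log axis) for the 38 members, with the median and the 5th to 95th percentile of all tested genes by depth in grey. Dashed lines mark 1.5-fold, and every member lies between -0.14 and 0.13.

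Depth matters to this comparison, since the members held between 298 and 15088 expected counts per library. Among all genes tested, 29.4% of those with a mean of 10 to 30 counts and 31.1% of those with 30 to 100 were over 1.5-fold apart. In the range from 3000 to 10000 counts, which held 22 members, 2.87% were. The median ratio of all genes in that range was 0.088. From 1000 to 3000 counts, which held 11 members, it was 0.041. Exact binomial 95% intervals, which cover counting error only, excluded a ratio of 0 for 10 members. They were below 0 for 7 and above 0 for 3. The same share over all genes tested was not computed, so the count describes these members in these libraries alone. Ndufb10 had the lowest ratio (-0.14, interval -0.20 to -0.09), followed by Ndufs7 at -0.12 and Ndufa12 at -0.10. Ndufs1, on the most reads, had a ratio of 0.10 (interval 0.07 to 0.13), and the highest ratio, that of Ndufb4, was 0.13 (interval -0.01 to 0.27).

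By TPM instead of TMM, 37 of the 38 members were lower in replicate 2, with a median log2 ratio of -0.14. The same scaling moved the median of all tested genes to -0.13. Their share below 0 by TPM was not computed, so the count of 37 has no background. All 7 mitochondrially encoded subunits were higher in replicate 2 under TMM, with ratios from 0.14 to 0.49 and a median of 0.18. The 4 red cell markers had a median ratio of 1.92, with Slc4a1 at 0.24, and the 4 fibroblast markers 0.54. The part of these cells in the ratios was not tested. Of the 8 cardiomyocyte markers 4 were lower and 4 higher, from -0.15 for Myh6 to 0.32 for Actc1, with a median of -0.02. Of 10 regulators of mitochondrial genes 4 were lower and 6 higher, with a median ratio of 0.14. They ran from the factor Yy1 at -0.23 to the coactivator Ppargc1a, with 39.6 and 59.0 TPM, at 0.63.

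Several members share closely similar sequence with other annotated genes, and this bears on the level given to the member itself. Each member's leading coding transcript was searched against all annotated transcripts (identity of at least 90% over at least 100 bases). The search found 34 such genes, called copies here, for 19 members. Of these copies, 30 were typed as processed pseudogenes and 22 had 0 TPM in both libraries. Gm42420, Gm20538 and Gm49356 overlap their member at its own locus. Other coding genes were not searched, so the count of 19 has no background. A TPM of 1 or more was found for 5 copies. The largest was Ndufb4c, a processed pseudogene by the annotation on chr15:73809507-73809896 (GRCm38, minus strand) and a protein-coding gene in the RefSeq table. Its 390 bases are identical to the whole coding sequence of Ndufb4 on chromosome 16, so a read within them matches both equally. The first 90 bases of both are shown to make this plain:
Ndufb4: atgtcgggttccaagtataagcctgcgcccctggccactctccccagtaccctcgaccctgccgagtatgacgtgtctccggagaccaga
Ndufb4c: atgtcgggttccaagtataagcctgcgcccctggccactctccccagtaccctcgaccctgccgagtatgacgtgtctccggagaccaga

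In the first tables Ndufb4c had 223 and 218 TPM, 77.5% of the sum of Ndufb4 and its copies. In the second tables, a separate quantification of the same libraries, Ndufb4c had 0 in both and Ndufb4 had 327 and 260.4 TPM. The sum was 285 TPM on average in the first tables and 294 in the second. These sums were not centred: over expressed nuclear coding genes the second tables ran 1.33-fold higher in replicate 1 and 1.36-fold in replicate 2. Counted with its copies, Ndufb4 lay above the subunit median of 241 TPM, Ndufb3 became the lowest subunit, and the range from highest to lowest subunit narrowed from 8.94-fold to 7.14-fold.

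Ndufs5 has a similar copy, BC002163, on chr16:42955631-42955949 (plus strand). The aligned 319 bases differ at 2 positions, T81C and A105G, counted from the first base of the Ndufs5 start codon with the Ndufs5 base first. The stretch around both is shown with the differing bases in capitals:
Ndufs5: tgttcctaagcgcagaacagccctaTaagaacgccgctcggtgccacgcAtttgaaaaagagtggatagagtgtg
BC002163: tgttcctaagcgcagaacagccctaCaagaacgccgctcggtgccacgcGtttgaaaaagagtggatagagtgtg

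BC002163 had 84.4 and 78.4 TPM in the first tables and 0 in both libraries in the second, where Ndufs5 had 289 and 270.5. Without centring, the sum of Ndufs5 and this copy was 212 TPM on average in the first tables and 280 in the second. Ndufa12 showed a different pattern with its copy Gm15920 on chr5:130188395-130188796 (plus strand), which differs at 2 of 402 bases, A147G and T426C. The first of these lies in this stretch:
Ndufa12: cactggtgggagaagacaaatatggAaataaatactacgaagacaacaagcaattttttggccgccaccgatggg
Gm15920: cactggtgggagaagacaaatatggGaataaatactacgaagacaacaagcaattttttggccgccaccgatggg

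Gm15920 had 62.2 and 57.7 TPM in the first tables and 173 and 113 in the second. Gm4459, a copy of Ndufab1 on chromosome 7, had 5.78 and 8.08 TPM against 167 and 156. Gm49356, a gene that overlaps Ndufb9 on the same strand, had 3.65 and 3.42 against 225 and 116. The levels of these 5 members are uncertain to that extent. The hearts are F1 hybrids, and reads of the non-reference allele were quantified against reference transcripts; the effect on these near-identical sequences was not tested.

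**Figure D4:**
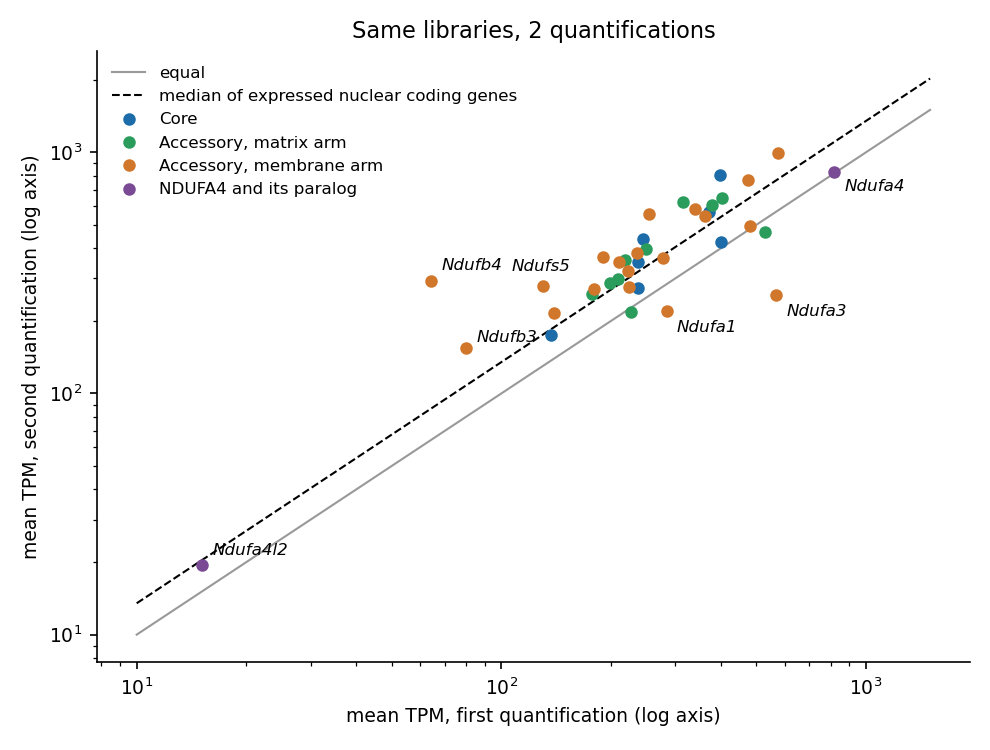
Mean TPM of the 38 members in the second against the first quantification of the same libraries (both axes log). The grey line marks equality and the dashed line the median ratio of expressed nuclear coding genes, 1.33 in replicate 1 and 1.36 in replicate 2. Ndufb4 lies furthest above the lines and Ndufa3 furthest below.

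The quantifications were then compared over all members. The second gave a higher TPM in both hearts for 34 of the 38 and a lower one for 4, with a median ratio of 1.51, while the median over expressed nuclear coding genes was 1.33 and 1.36. After centring on that median, 3 members were over 1.5-fold higher in the second tables in both hearts (Ndufb4, Ndufs5 and Ndufb5), against 2.95% of genes. Over 1.5-fold lower were 2 members (Ndufa3 and Ndufa1), against 1.72%. Spearman's rho of mean TPM between the quantifications was 0.75 across the 38 genes, well below the 0.996 between the hearts. The order of these genes thus differed more between tables than between hearts.

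Ndufa3 was the most discordant member without a listed copy. It had 588 and 547 TPM in the first tables and ratios of 0.50 and 0.40 in the second. Of its TPM in the first quantification, 93.1% was on Ndufa3-204, a transcript of 343 bases typed as a target of nonsense-mediated decay, the pathway that destroys messages with an early stop codon. The second tables gave that transcript 0 and put 70.8% and 94.8% on the retained-intron transcript Ndufa3-205 in replicates 1 and 2. Ndufa3 transcripts typed protein coding held 6.46% and 5.90% in the first tables. In the second they held 23.6% in replicate 1 and 0.711% in replicate 2, so the libraries differed there.

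The members' transcript types were examined in the same way. Transcripts typed protein coding held 75.9% and 75.4% of the members' summed TPM in replicates 1 and 2 (75.7% ± 0.383, SD, n = 2). For 17 members they held at least 99%, and for 14 under 80%. The same shares over other expressed coding genes were not computed, so no background stands beside these values. The leading transcript was not typed protein coding for 6 members, or 15.8%, against 6.83% of expressed nuclear coding genes. The leading transcript differed between the quantifications for 10 members, or 26.3%, against 22.8%.

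**Figure D5:**
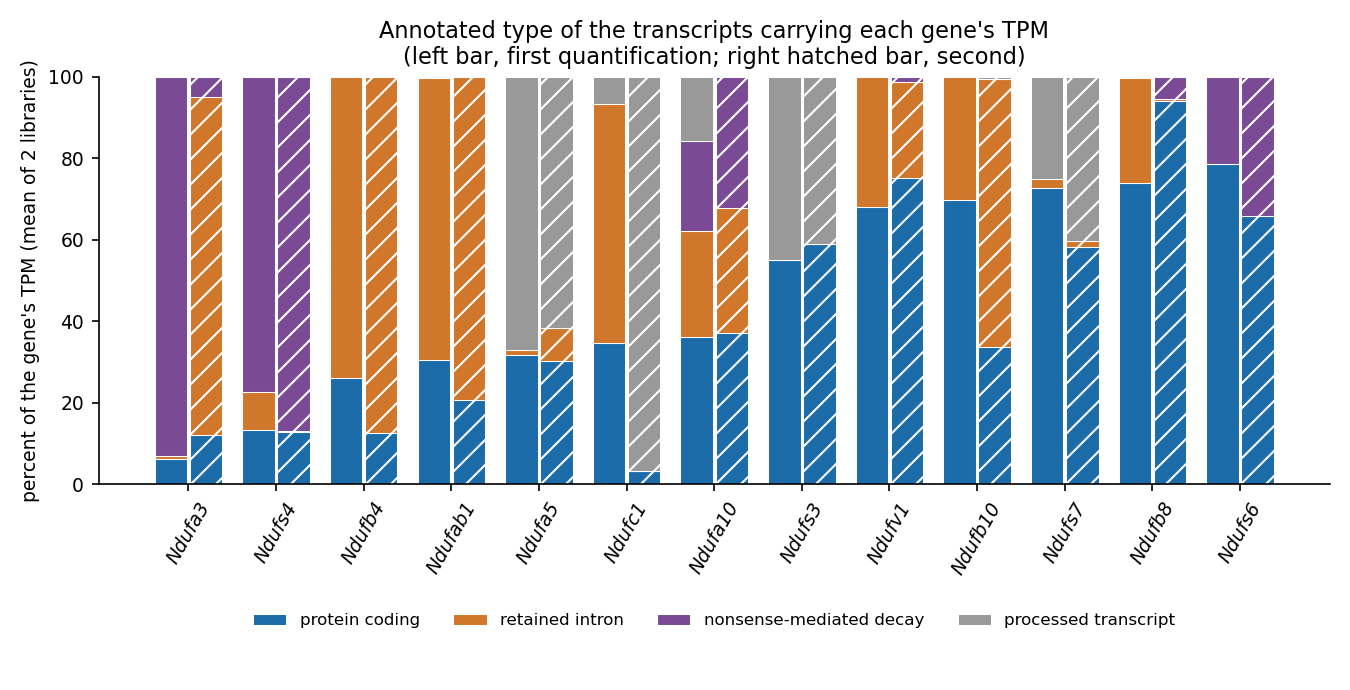
Percent of each gene's TPM (mean of 2 libraries) on transcripts of each annotated type, for 13 members with under 80% on protein-coding transcripts in the first tables. Left bars are the first quantification and right hatched bars the second. Ndufs4, Ndufa5 and Ndufa10 have coding shares within a few percentage points in both, while Ndufb10, Ndufb8 and Ndufc1 do not.

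Ndufs4 kept its pattern by type in both quantifications. Transcripts typed nonsense-mediated decay held 77.3% of its TPM in the first and 86.9% in the second, and protein-coding ones 13.2% and 12.8%. Ndufa5 had 67.0% on Ndufa5-204, a processed transcript with no annotated coding sequence, and 61.7% in the second tables. Ndufab1 had 69.3% and 79.3% on retained-intron transcripts, and Ndufb4 73.9% and 87.4%. Ndufa10 was split among types, with 36.1% coding in the first and 37.1% in the second. Shares that were close by type could rest on different transcripts. The main coding transcript of Ndufs4 was Ndufs4-206 (11.6%) in the first and Ndufs4-201 (12.4%) in the second. That of Ndufa5 was Ndufa5-202 (30.9%) and then Ndufa5-201 (30.4%). The retained-intron transcript Ndufab1-208 held 31.7% and then 0.316%.

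Other members changed type with the table. Ndufc1 had 58.7% on the retained-intron transcript Ndufc1-203, of 311 bases, in the first tables and 0% in the second, where 96.7% was on the processed transcript Ndufc1-202. Ndufb10 had 30.1% and 65.8% on retained-intron transcripts, and Ndufb8 25.7% and 0.299%. Ndufa7, 85.5% protein coding in the first tables, had 3.41% in the second, and Ndufb2 81.2% and 20.2%. Among the core genes, coding shares in the first tables were 55.1% for Ndufs3, 68.0% for Ndufv1 and 72.8% for Ndufs7. Short reads shared by overlapping transcripts of a gene are divided by estimation, so these shares are estimates for annotated models, not counts of full-length molecules.

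Interval bounds deposited with the TPM were checked for the members. The TPM lay above the upper bound in both libraries for 3 members and in at least 1 library for 4, and below the lower bound for none. The same shares over all genes were not computed, so these counts have no background. The 3 were Ndufa4, Ndufb9 and Ndufv2. For Ndufa4 in replicate 1 the bounds were 809.6 and 848, beside its level of 851 TPM. The deposited posterior mean TPM of Ndufa4 in replicate 1, 828.55, lay within them. Those of Ndufb9 (491.98) and Ndufv2 (413.69) in replicate 1 also lay within their bounds. The bounds were therefore not used as errors of the TPM here.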

How the data were processed

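Heart RNA of 1 group of 2 libraries was analysed. Per the file headers, the authors' gene-level and transcript-level files give an expected count, TPM and posterior mean TPM for each feature, and bounds of a TPM interval for genes, under RSEM's column names. Each library also has a deposited transcript file under kallisto's column names, with an estimated count and TPM; here its values were summed by gene and are called the second tables. Notes deposited beside the files name the build mm10 and GENCODE M21. The aligner and the versions of these tools are not given in the sources used here.

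Members and gene lists were chosen with earlier results of these data known. Expected counts were rounded, genes were filtered with filterByExpr, and log2 ratios used TMM scaling with a prior count of 2 (edgeR 4.0.16, R 4.3.3); the step was tested on simulated data. DESeq2 1.42.0 size factors, spike-in scaling and the second tables were alternatives. Library sizes excluded the 96 spike-ins and 26248 numbered rows without a gene name, and the latter had 6.31e-06% and 1.11e-05% of all counts. Log differences of TPM used a pseudocount of 0.1. Copies were found with BLAST 2.17.0. Other steps used Python 3.11.15, pandas 2.3.3, NumPy 2.4.6 and SciPy 1.17.1. All members could be named, along with up to 4 genes of each comparison list, their processed copies and divergent neighbours. Promoters came from RefSeq (GRCm38.p6) and transcripts from GENCODE M21. Intervals are exact binomial at the 95% level and cover counting error only, since PCR reads are not independent molecules. Values of 1 gene, which stays in all counts and medians, are not reported here.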

Additional observations from a re-analysis of the deposited data

How the results depend on the processing

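With 2 libraries, no test limits or supports a call, and the number of libraries bounds every SD. All 38 members stayed expressed at TPM thresholds of 0.5 and 5 and in the second tables, and none passed 1.5-fold between the hearts under any scaling. The second tables gave a median member TPM of 360.1, a core minus accessory difference of 0.22, a mitochondrial minus nuclear difference of 3.51, an Ndufa4 minus Ndufa4l2 difference of 5.41 and a coding transcript share of 74.4%. The median log2 ratio was 0.032 with spike-in scaling, 0.0086 with the second tables' counts and -0.14 by TPM, so its sign depends on the scaling. With the 37 canonical subunits alone, the share of nuclear coding TPM was 2.33% and the core minus accessory difference 0.11. The Ndufa4 minus Ndufa4l2 difference was 5.70 with posterior mean TPM and 5.66 with a pseudocount of 1. Without centring, 19 members were over 1.5-fold apart between the quantifications, in place of 5. The share of all genes without centring was not computed. Leaving out 1 replicate gave a median member TPM of 228 to 259, a share of 2.44% to 2.57%, core minus accessory differences of 0.07 to 0.10, mitochondrial minus nuclear differences of 4.15 to 4.39, Ndufa4 minus Ndufa4l2 differences of 5.73 to 5.76, coding shares of 75.4% to 75.9% and 38 expressed members. In an alternative chosen after seeing the data, the copies found by the search were added to each member, which gave a median of 252 TPM and a share of 2.59%. The causes were not tested. No paired analysis was possible because there was 1 group.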
